A study of Mus musculus with 6 samples.

Results

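The megakaryocyte and platelet genes described here are Pf4, Ppbp, Itga2b, Gp1bb, Gp9, Gp5, Vwf, Selp, Nfe2 and Treml1, 10 genes out of 18193 with their own symbol on the array. They were chosen by name, as platelet glycoproteins, granule proteins and a regulator, and every probe set annotated to 1 of these symbols alone was taken, 13 in all. RNA of sorted mouse bone marrow cells was measured on 6 Affymetrix arrays, 3 of wild-type (WT) animals and 3 of animals that lack the nuclear receptors Nr4a1 and Nr4a3 (double knockout, DKO). The cells were sorted as negative for lineage markers and positive for Sca1, which enriches blood stem cells and early progenitors. Every replicate is a pool of RNA of 10 to 20 animals, 2 to 3 weeks old, so SD here measures how pools differ. DKO animals came from crosses of single Nr4a1 and Nr4a3 knockouts in a mixed C57BL/6 and 129SvJ background. The labels give no strain for the WT mice, and the part of background in any difference was not tested.

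Megakaryocytes are the large bone marrow cells that shed platelets, and they arise from stem cells through progenitors shared with red cells. They load platelet granules with proteins such as platelet factor 4 (Pf4), pro-platelet basic protein (Ppbp) and von Willebrand factor (Vwf). Their surface carries the integrin chain Itga2b, which pairs with Itgb3 to bind fibrinogen, and the von Willebrand factor receptor, of which Gp1bb, Gp9 and Gp5 are subunits. Several of these genes, Itga2b, Vwf and Selp among them, are also transcribed in platelet-primed stem cells, and Vwf and Selp are made by endothelium as well.

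Promoter sequences are shown for 4 members with different patterns over the arrays: Pf4 and Itga2b, which ran together, Selp, which was higher in DKO at 3 probe sets, and Gp5, which was bright in 1 WT pool. Each line gives the 250 bases before the RefSeq gene start in GRCm38.p6, 5′ to 3′ on the strand of the gene, and capitals mark matches to the GATA motif. The windows are chr5:90772185-90772434 (plus strand) for Pf4, chr11:102469884-102470133 (minus strand) for Itga2b, chr1:164115014-164115263 (plus strand) for Selp and chr16:30310782-30311031 (minus strand) for Gp5.
Pf4: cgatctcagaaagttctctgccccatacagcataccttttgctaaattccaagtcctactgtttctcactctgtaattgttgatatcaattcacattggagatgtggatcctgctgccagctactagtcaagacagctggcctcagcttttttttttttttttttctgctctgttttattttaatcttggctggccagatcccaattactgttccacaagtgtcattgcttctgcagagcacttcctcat
Itga2b: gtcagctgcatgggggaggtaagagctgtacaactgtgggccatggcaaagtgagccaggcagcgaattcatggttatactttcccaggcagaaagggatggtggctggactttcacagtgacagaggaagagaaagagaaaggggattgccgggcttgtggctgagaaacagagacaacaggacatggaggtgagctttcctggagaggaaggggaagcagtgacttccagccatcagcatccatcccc
Selp: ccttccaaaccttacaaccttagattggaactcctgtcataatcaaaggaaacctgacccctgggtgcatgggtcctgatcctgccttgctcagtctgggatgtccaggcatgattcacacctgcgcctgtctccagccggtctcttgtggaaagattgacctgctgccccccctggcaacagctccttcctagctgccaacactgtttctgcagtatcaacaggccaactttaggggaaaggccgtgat
Gp5: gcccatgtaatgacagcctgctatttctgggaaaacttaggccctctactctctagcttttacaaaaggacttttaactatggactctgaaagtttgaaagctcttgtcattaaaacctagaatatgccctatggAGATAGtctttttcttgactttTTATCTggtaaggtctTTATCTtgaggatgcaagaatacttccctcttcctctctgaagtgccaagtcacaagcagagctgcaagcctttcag

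The RefSeq table held a promoter for 8 of the 10 genes. Vwf and Nfe2 are named only. On both strands, 4 motifs were searched. The GATA motif was searched as AGATAA or TGATAA or AGATAG or TGATAG. The core of the NF-E2 site was TGAGTCA. An ETS site was searched as CAGGAAG or CCGGAAG, and the element that NR4A receptors bind as AAAGGTCA. The GATA letters were in 2 of the 8 windows, those of Gp5 and Gp1bb, and in 26.5% of all 32851 promoters. Gp5 held 3 such matches, which begin 115, 93 and 77 bases before the start, and Gp1bb held 1, which begins 22 bases before it. No match overlapped another. The NF-E2 core, the ETS letters and the NR4A element were in 0 of the 8 windows, against 4.46%, 17.0% and 1.34% of all promoters. That says only that these letters are not in these windows.

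Values are MAS5 signals, the array software's linear brightness per probe set. Differences are DKO minus WT on log2(signal + 16), from limma fitted to 27022 probe sets, with Benjamini-Hochberg adjusted p over all of them and a threshold of 0.05. An interval is the 95% interval of the difference, not adjusted for the number of probe sets. Probe sets whose mean log2(signal + 16) lay under the value for a signal of about 53.2 were not in that fit. Of the 13 member probe sets, 9 passed this filter, for 7 genes, and 4 did not, those of Gp1bb, Gp5 and Treml1. For these 4, differences come from a fit without the filter.

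Of the 9 tested member probe sets, 0 changed at adjusted p under 0.05, against 1.37% of all tested probe sets. At an unadjusted p under 0.05 there were 4 of 9, the 3 of Selp and that of Nfe2, against 14.2% of all, and the 3 of Selp measure 1 gene. The count of changed members was also 0 under each of the 15 other settings, which included array quality weights and a fit without an intensity trend. The share of all probe sets that changed was 0.492% without WT replicate 1, 0.477%, 0.614% and 0.385% without DKO replicates 1, 2 and 3, and 1.74% without WT replicate 2. Of the 9, 6 were higher and 3 lower in DKO, with a median of 0.67. Since 3 of the 6 belong to Selp, the count by gene was 4 higher and 3 lower. Over all tested probe sets 54.4% were lower, and the median was -0.05. Without WT replicate 2 the members' median was 0.18, with 5 of 9 higher. Groups did not overlap at 4 of the 9 probe sets, 2 of them of Selp, against 19.8% of all tested probe sets. They did not overlap for 2 of the 7 genes by their brightest probe set, Itga2b and Nfe2, against 22% of 11529 genes.

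**Figure D1:**
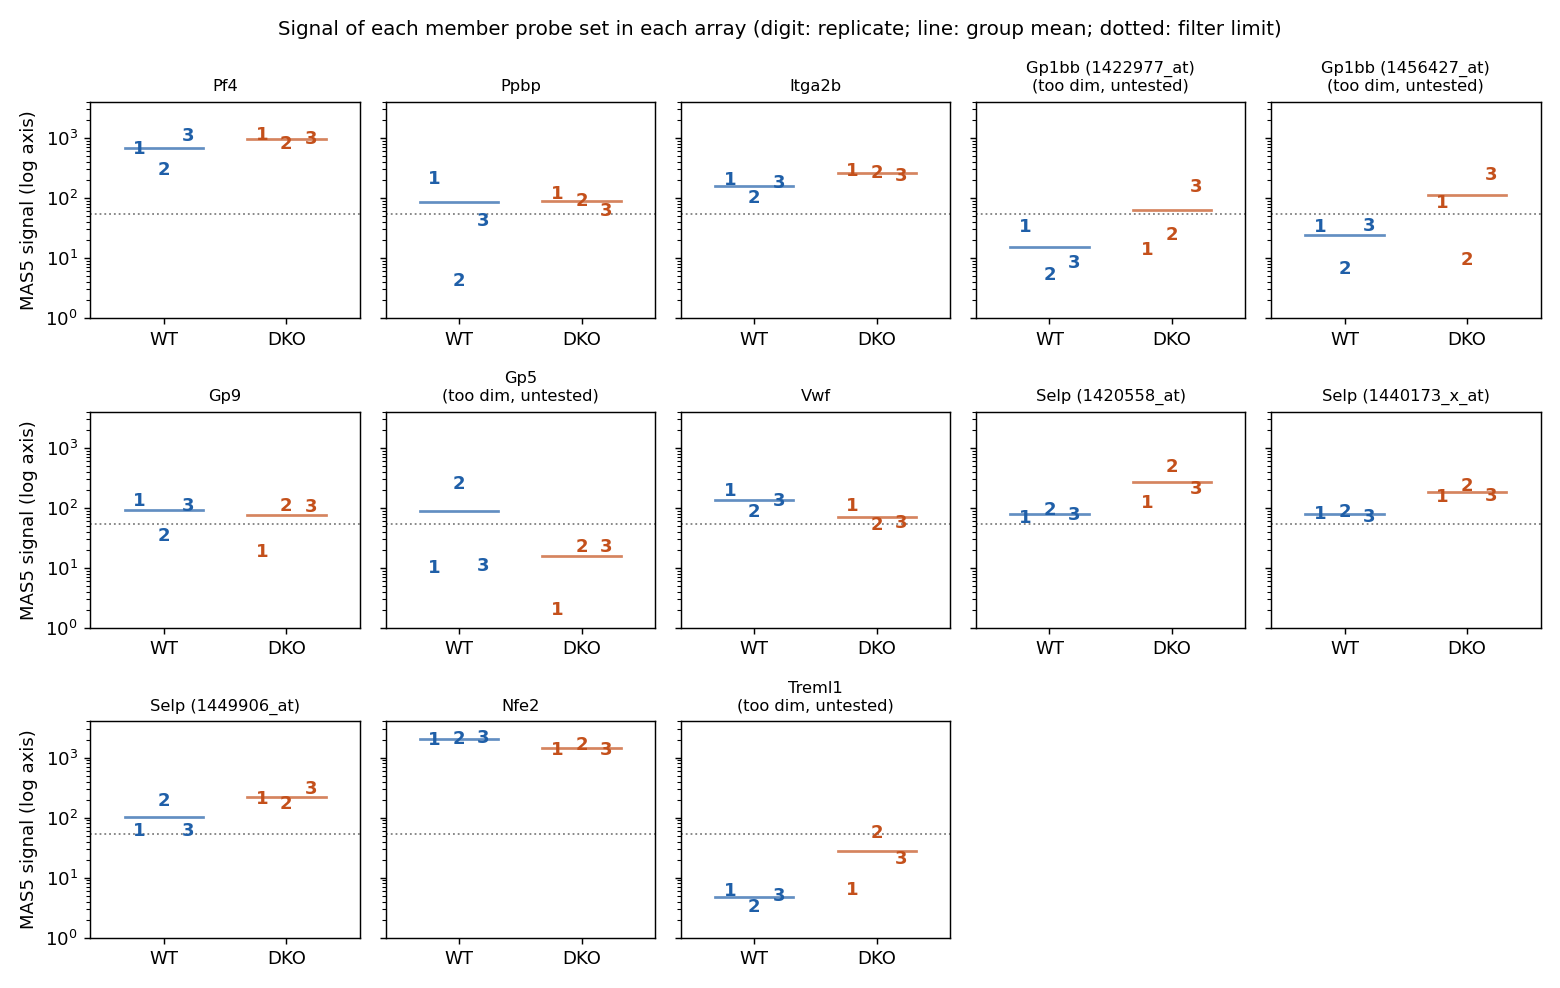
MAS5 signal (log axis) of each of the 13 member probe sets in the 3 WT and 3 DKO arrays, with each digit the replicate number, lines at group means and a dotted line at the filter limit of about 53.2. WT replicate 2 is the lowest WT array for Pf4, Ppbp, Itga2b, Gp1bb (both probe sets), Gp9, Vwf and Treml1. It is the highest for Gp5 and for every Selp probe set.

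Across tested probe sets, pairs of WT arrays had r from 0.898 to 0.933, pairs of DKO arrays from 0.927 to 0.944 and mixed pairs from 0.874 to 0.912. Nr4a1 was at 1065 ± 230 (SD, n = 3) in WT and 21.4 ± 12.9 (n = 3) in DKO. WT replicate 2 stood apart. With every gene centred on its own 6-array mean, the average log2 level of this pool was 1.69 for the erythroid list, 1.54 for the neutrophil list and 1.74 for the B lineage list. The other WT arrays lay between -1.45 and 0.32 on these lists. Genes of the sorted population were bright, and 1 of the 4 tested passed the threshold, Flt3. Signals in WT and DKO were 2779 and 1825 for Kit, 3543 and 2056 for Cd34, and 8682 and 10108 for Ptprc, none past the threshold, though Kit and Cd34 did not overlap. Flt3 fell from 1737 to 579 (-1.54, limma adjusted p = 0.0108). Over all genes 0.633% fell and 1.08% rose. Ly6a, which encodes Sca1, was not analysed here. Of 4 tested genes of lineages sorted out, 1 rose, Cd3e, from 13.3 to 231 (adjusted p = 0.00706), and Cd8a, Itgam and Ms4a1 were at 0.69, 0.61 and -1.27, with overlap.

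The granule chemokine Pf4 had signals of 649, 293 and 1070 in WT replicates 1 to 3 and 1123, 786 and 966 in DKO replicates 1 to 3. WT replicate 2 was the low array, and WT replicate 3 lay inside the DKO range, so the groups overlapped. The means were 671 ± 389 (SD, n = 3) and 958 ± 168 (n = 3). The log2 difference was 0.67 ± 0.40 (SE), with an interval of -0.20 to 1.54 and limma adjusted p = 0.486. Without WT replicate 2 it was 0.18, and without WT replicate 3 it was 1.09.

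Ppbp, a second granule chemokine whose gene lies next to Pf4, had signals of 211, 4.1 and 41.3 in WT and 116, 88.3 and 60.4 in DKO. The WT arrays spanned the DKO arrays on both sides, with WT replicate 2 near the floor. The log2 difference of 0.67 ± 0.74 had an interval of -0.95 to 2.29 (adjusted p = 0.742). It was -0.16 without WT replicate 2, so its direction rests on that pool. Without WT replicate 1, Ppbp was too dim to be tested.

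Itga2b encodes the alpha chain of the platelet fibrinogen receptor. Its signals were 201, 99.8 and 176 in WT and 277, 259 and 233 in DKO. Every DKO array was above every WT array. The means were 159 ± 52.7 and 256 ± 22.2 (SD, n = 3 each), a log2 difference of 0.68 ± 0.39 with an interval of -0.16 to 1.53 and limma adjusted p = 0.456. Leaving out an array gave 0.41 (without WT replicate 2) to 0.86 (without WT replicate 1). Across the 6 arrays Itga2b followed Pf4 and Ppbp, with Pearson r of 0.838 and 0.796, and Pf4 and Ppbp had r = 0.590. These r describe 6 arrays that share WT replicate 2 as the low point of all 3 genes.

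The von Willebrand factor receptor subunits were dim. Gp9, which the complex needs to reach the surface, had signals of 131, 34.2 and 106 in WT and 18.1, 107 and 102 in DKO. Each group held 1 low array, WT replicate 2 and DKO replicate 1, and the rest lay within a narrow range. The log2 difference was -0.29 ± 0.62, interval -1.63 to 1.06 (adjusted p = 0.885). It was 0.32 without DKO replicate 1 and -0.76 without WT replicate 2, so neither direction nor size was settled by these arrays.

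Gp1bb, the beta chain of glycoprotein Ib, had 2 probe sets of its own. At 1422977_at the signals were 32.7, 5.3 and 8.1 in WT and 13.6, 23.8 and 151 in DKO. At 1456427_at they were 32.9, 6.5 and 33.5 in WT and 84.0, 9.1 and 243 in DKO. At both probe sets DKO replicate 3 was the highest array and WT replicate 2 the lowest, and the groups overlapped. The differences without the filter were 0.99 (interval -0.44 to 2.42) and 1.19 (-0.52 to 2.91), with adjusted p = 0.633 at each. Without DKO replicate 3 they were 0.23 and 0.40.

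Gp5, a subunit that thrombin cleaves, had signals of 10.1, 249 and 10.9 in WT and 2.0, 21.9 and 22.6 in DKO. It was bright in WT replicate 2 alone. In that array Pf4, Ppbp, Itga2b, Gp1bb, Gp9, Vwf and Treml1 were lowest among the WT arrays, and Selp was highest. Its difference of -0.94 (interval -2.72 to 0.84, adjusted p = 0.730 without the filter) became 0.17 without that array.

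Vwf, the adhesive protein that tethers platelets to injured vessel walls, had signals of 193, 85.4 and 128 in WT and 106, 52.3 and 55.4 in DKO. DKO replicate 1 lay above WT replicate 2, and the other DKO arrays were below all WT arrays. The means were 135 ± 53.9 and 71.2 ± 30.0 (SD, n = 3 each). The log2 difference was -0.79 ± 0.47 (interval -1.81 to 0.23, adjusted p = 0.483). It stayed below 0 with each array left out, between -1.05 and -0.52.

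Selp, P-selectin, is a granule membrane protein that binds leukocytes once exposed on activated platelets. It had the largest differences among the tested members, at all 3 of its probe sets. At 1420558_at the signals were 67.1, 90.7 and 76.6 in WT and 122, 478 and 206 in DKO, with no overlap. The probe set 1440173_x_at showed 78.2, 85.5 and 69.5 in WT and 152, 229 and 159 in DKO, again with no overlap. At 1449906_at, with 60, 191 and 60.1 in WT and 208, 167 and 295 in DKO, WT replicate 2 lay above DKO replicate 2.

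The log2 differences of Selp were 1.40 ± 0.50, 1.05 ± 0.40 and 1.14 ± 0.49, in that order. Their intervals of 0.32 to 2.49, 0.17 to 1.93 and 0.07 to 2.20 lay above 0, but adjusted p = 0.218, 0.259 and 0.319 by limma over all probe sets missed the threshold. These are folds of 2.64, 2.07 and 2.20 on the log2(signal + 16) scale. The array with the highest DKO signal differed between probe sets, DKO replicate 2 at the first and second and DKO replicate 3 at the other. Without DKO replicate 2 the first was 0.90. All 3 differences stayed above 0 with each array left out, between 0.88 and 1.82, but their intervals did not. Without DKO replicate 2 the limma unadjusted p was 0.0923 at the first and 0.0890 at the second. Without DKO replicate 3 it was 0.128 at the third, so each interval then included 0.

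Nfe2, the haematopoietic subunit of the NF-E2 transcription factor that megakaryocytes need to release platelets, was bright and tight. Signals were 1964, 2010 and 2098 in WT and 1345, 1599 and 1334 in DKO. All DKO arrays were below all WT arrays. The means were 2024 ± 68.0 and 1426 ± 150 (SD, n = 3 each), 1.42-fold lower in DKO. The log2 difference of -0.50 ± 0.20 had an interval of -0.94 to -0.07 and limma adjusted p = 0.268. With an array left out it lay between -0.59 and -0.46. The interval included 0 without WT replicate 3, DKO replicate 1 or DKO replicate 3 (limma unadjusted p = 0.0612, 0.0748 and 0.0644). It also did so with median centring, which gave -0.40 (unadjusted p = 0.0972), and without an intensity trend (unadjusted p = 0.0582).

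Treml1, a receptor stored in platelet granules, was near the floor, with 6.0, 3.3 and 4.9 in WT and 6.2, 55.8 and 20.8 in DKO. DKO replicate 1 was level with WT replicate 1, and DKO replicates 2 and 3 were higher. The difference without the filter was 0.91 (interval -0.015 to 1.83, adjusted p = 0.462) and 0.47 without DKO replicate 2. Signals this low are close to the offset of 16, so the fold is understated and its size cannot be read.

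**Figure D2:**
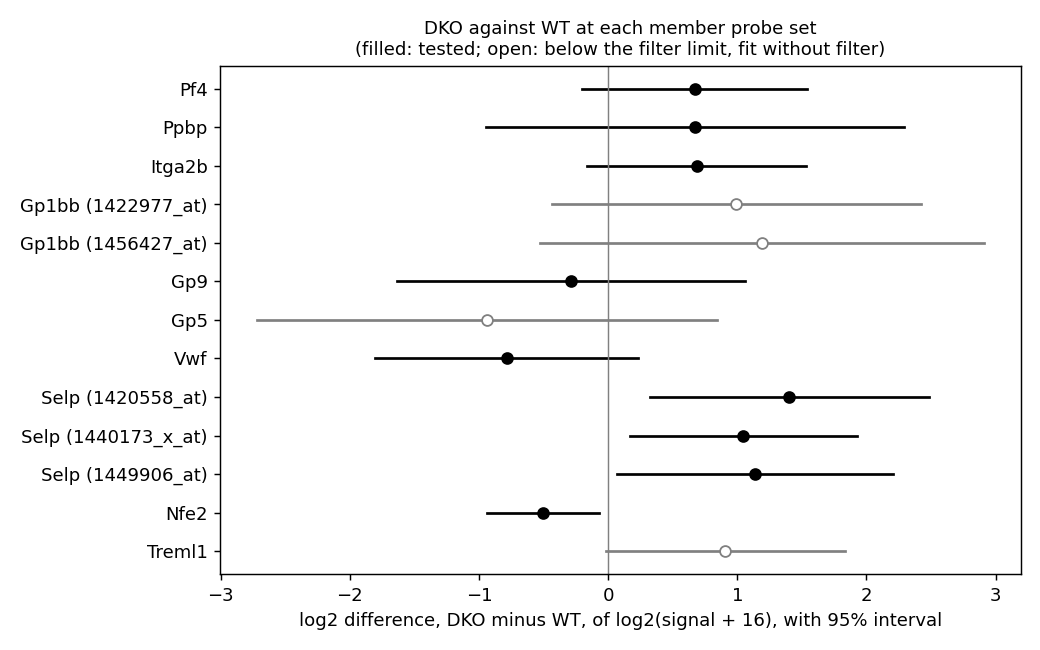
Difference in log2(signal + 16), DKO minus WT, at the 13 member probe sets with the 95% interval of each, filled points for the 9 tested probe sets and open points for the 4 too dim to test. The intervals of the 3 Selp probe sets lie above 0 and that of Nfe2 below 0, and the others include 0.

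**Figure D3:**
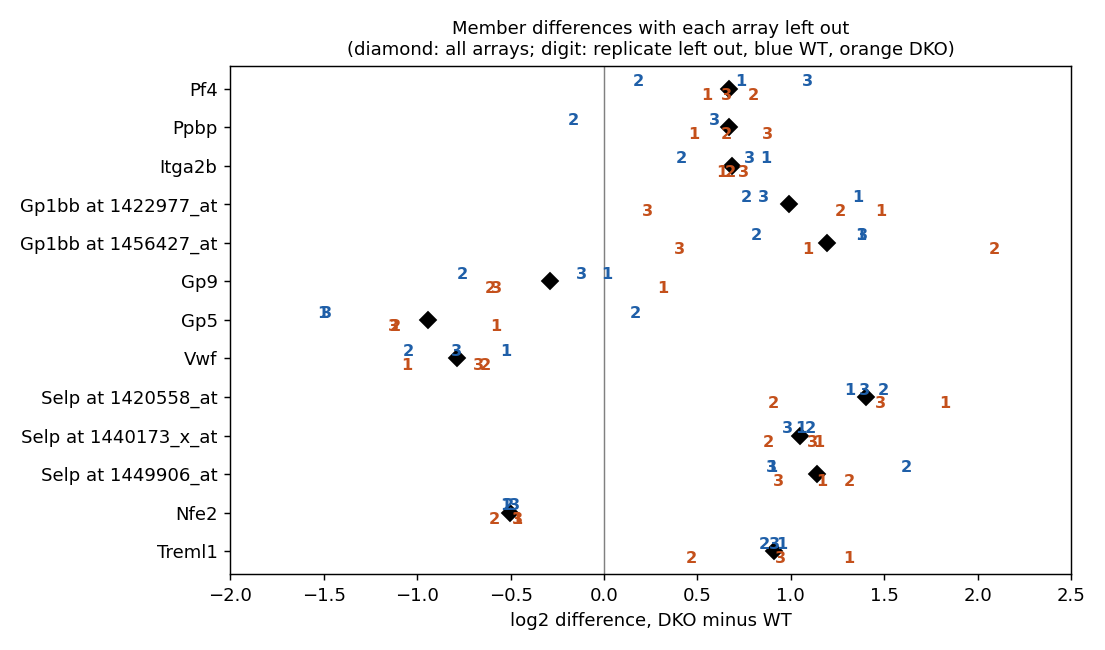
Difference in log2(signal + 16), DKO minus WT, with all arrays (diamond) and with each array left out (digit, the replicate left out, blue for WT and orange for DKO). Leaving out WT replicate 2 moves Pf4 from 0.67 to 0.18, turns Ppbp to -0.16 and turns Gp5 to 0.17.

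The members did not share 1 pattern over the 6 arrays. Selp at its brightest probe set and Vwf, which share a granule as proteins, had r = -0.804. Selp and Nfe2 had r = -0.774, and Itga2b and Nfe2 had r = -0.717. Selp followed Itga2b at r = 0.151 and Pf4 at r = -0.058. The mean level of the 7 tested genes was 0.30, -0.64 and -0.004 in WT replicates 1 to 3 and 0.10 to 0.13 in the DKO arrays. This mean hides differences between DKO pools in single genes, such as Gp9 and Selp.

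For each tested member, the 2 genes most like it over the 6 arrays, among 11529 genes, were found by Pearson r. Pf4 was most like Nmi (0.998) and St13 (0.993), and Itga2b most like Adss (0.995) and Utp18 (0.992). Selp was most like 2310068J16Rik (0.996) and Ms4a4c (0.995), and Vwf most like Ppp2r3a (0.997) and Tmtc3 (0.988). Nfe2 was most like Tsc22d1 (0.998) and Akr1b10 (0.994). For Ppbp they were 1600023N17Rik (0.993) and 4930520O04Rik (0.989), and for Gp9 3000002C10Rik (0.980) and Zfp3 (0.979). None of these 14 genes is in the megakaryocyte lists, and r over 6 arrays from so many genes describes these arrays only.

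Beside the members, 65 further genes of megakaryocytes and platelets were listed in 4 groups, of which 59 had a probe set of their own and 51 were tested. Of these 51, 2 rose and 1 fell, against 1.08% and 0.633% of all genes, and 24 were higher and 27 lower, with a median of -0.03 (-0.01 over all genes). An unadjusted p under 0.05 was found for 14 of the 51 (against 16.3% of all genes), 5 of them among the 14 tested transcription regulators. Groups did not overlap for 5 higher and 9 lower genes, against 22% of all genes in either direction. With median centring 29 of the 51 were higher, with quantile normalization 28 and with array quality weights 26. The split was near even, and the side with more genes depends on the processing. The count of 3 changed genes was 0 when WT replicate 1 or any of the 3 DKO replicates was dropped.

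Among receptors and surface proteins, 1 of 11 tested genes rose, Itgb3, the beta chain that joins the Itga2b protein in the fibrinogen receptor. Its signals were 962, 1146 and 613 in WT and 1953, 1960 and 2676 in DKO, with no overlap. The difference was 1.29 ± 0.27 (limma adjusted p = 0.0409). A second, dimmer Itgb3 probe set was at 0.49 ± 0.50 (adjusted p = 0.715), with overlap. Dropping single arrays kept this call in 1 case of 6, that of WT replicate 2, and the highest adjusted p, 0.169, came without DKO replicate 3. Pear1, a platelet aggregation receptor, was at -0.79 with no overlap and did not pass (limma adjusted p = 0.243). A second tested Pear1 probe set was at -0.92, also with no overlap (adjusted p = 0.247). Cd36 was at -0.95 with overlap and did not pass (adjusted p = 0.468).

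Among granule and secreted proteins, 1 of 13 rose. It was F5, coagulation factor V, with signals of 321, 653 and 135 in WT and 2082, 2279 and 1384 in DKO. All DKO arrays were far above all WT arrays. The difference was 2.54 ± 0.45 (limma adjusted p = 0.0196), and a second F5 probe set rose too, by 1.91 ± 0.39 (adjusted p = 0.0392). With an array left out the first was at 1.99 to 3.07. Its call held without WT replicate 2 or 3 and was lost without WT replicate 1 (adjusted p = 0.0747) and without DKO replicates 1, 2 and 3 (adjusted p = 0.0947, 0.0815 and 0.0643). The granule proteoglycan Srgn and the matrix protein Sparc were at 0.09 and 0.18, with overlap (adjusted p = 0.824 and 0.889). Mmrn1, a carrier of factor V in platelet granules, was at -1.58 ± 0.42 and did not pass (adjusted p = 0.0979), with no overlap between groups.

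Of 13 tested genes of the cytoskeleton and signalling, 0 passed, and 3 (against 16.3% of all genes) had an unadjusted p under 0.05. Those with the smallest p were Tbxas1, thromboxane synthase, at -1.13 ± 0.41 (adjusted p = 0.231) and Pdlim1 at 0.92 ± 0.34 (adjusted p = 0.234). The brightest, the myosin chain Myh9 and the platelet kinase substrate Plek, were at 0.21 and 0.25, with overlap.

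Among 14 tested transcription regulators 1 fell, Meis1, a homeobox factor of stem cells and megakaryocytes, from 2466 ± 1000 to 923 ± 80.7 (SD, n = 3 each). The difference was -1.33 ± 0.28 (limma adjusted p = 0.0456), and 2 other Meis1 probe sets were at -0.52 and -0.78 and did not pass (adjusted p = 0.582 and 0.253). Dropping single arrays kept this call in 1 case of 6, that of WT replicate 3, and the highest adjusted p, 0.166, came without WT replicate 1. Lmo2 and Mef2c were at -0.50 and -0.80 (adjusted p = 0.0896 and 0.101). Gata1, the factor that drives red cell and megakaryocyte genes, had signals of 161, 218 and 148 in WT and 406, 464 and 459 in DKO, and did not pass (1.27 ± 0.34, adjusted p = 0.0981). Mmrn1, Cd36 and Gata1 were picked for mention after their values were seen.

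**Figure D4:**
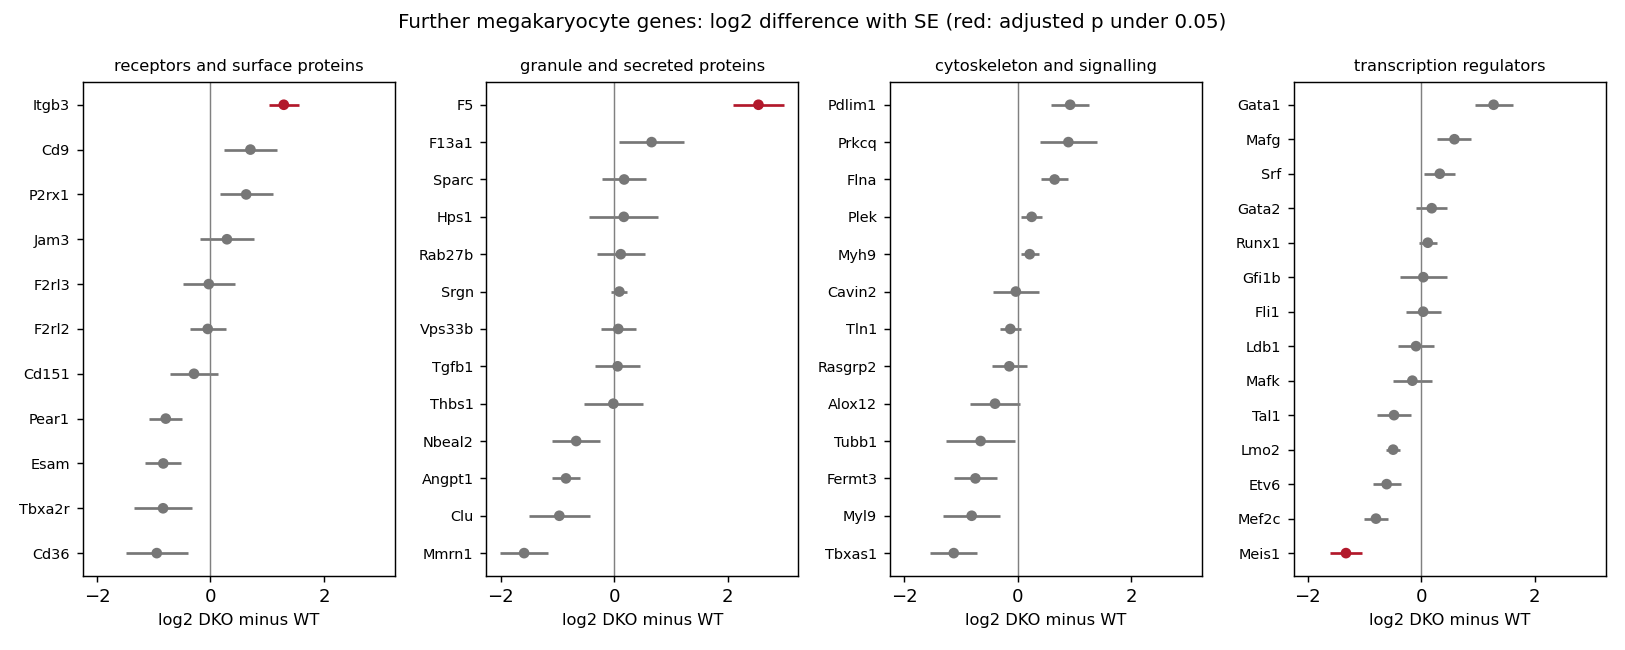
Difference in log2(signal + 16), DKO minus WT, with SE, for the 51 tested further megakaryocyte genes in 4 groups, with red for the 3 past adjusted p of 0.05. Itgb3 and F5 are at 1.29 and 2.54 and Meis1 is at -1.33.

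Markers of other cell types were read from the same arrays, because in bulk RNA fewer cells of a type and less RNA per cell cannot be told apart. In the mast cell and basophil list 5 of 9 tested genes rose and 0 fell, against 1.08% and 0.633% of all genes. Its summed signal was 4366.5 to 4714 in WT and 10434 to 13577 in DKO. Most of the WT sum came from Kit and Gata2, with WT means of 2779 and 1212, and neither passed the threshold. Of the 5 that rose, Ms4a2 went from 92.0 to 4297, Mcpt8 from 118 to 1724 and Cpa3 from 58.3 to 924. Gata1, Itga2b and Nfe2 are also transcribed in mast cell precursors, and the part of this list in their values was not tested. In the stem cell list 6 of 11 fell and 0 rose, against 0.633% and 1.08% of all genes. Its summed signals were 35803 to 42545 in WT and 16820 to 20157 in DKO. Meis1 is a member of that list too. The lists were chosen with earlier results of these data known.

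The erythroid list had 0 of 10 tested genes past the threshold and 5 at an unadjusted p under 0.05 (against 16.3% of all genes). Of these 5, Slc4a1, Rhd, Alas2 and Hbb-b2 were lower in DKO, with overlap and with WT replicate 2 highest. Car1 was higher, with no overlap. Summed signals were 8951 to 61689 in WT and 14452 to 20870 in DKO. The wide WT range is that of replicate 2 at the top and replicate 3 at the bottom. In the endothelial list, which bears on Vwf and Selp, 1 of 12 fell, against 0.633% of all genes. It was Emcn, which fell by 1.95 on the log2 scale (limma adjusted p = 0.0206). Another 8 were lower, 4 of the 12 had an unadjusted p under 0.05, and the list's summed signals were 4854 to 6853 in WT and 3189 to 3581 in DKO. Sele, Plvap and Icam2, the other 3, were higher, with overlap. Groups did not overlap for 5 of the 12, all lower in DKO, against 22% of all genes. The median difference was -0.61 in this list and -1.29 in the stem cell list. Vwf, with overlap, was lower alongside both lists, and Selp was higher. The neutrophil and B lineage lists had 0 of 7 and 0 of 6 past the threshold, and 0 and 2 at an unadjusted p under 0.05. The brightest neutrophil genes had high signals in both groups, with WT and DKO means of 19410 and 18012 for S100a9 and 12174 and 9159 for S100a8. Summed signals of the neutrophil list were 17202 to 82089 in WT and 29022 to 50997 in DKO. Without detection calls, a low marker signal cannot show whether cells of that type were present. The part of these cell types in the members' values was not tested.

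**Figure D5:**
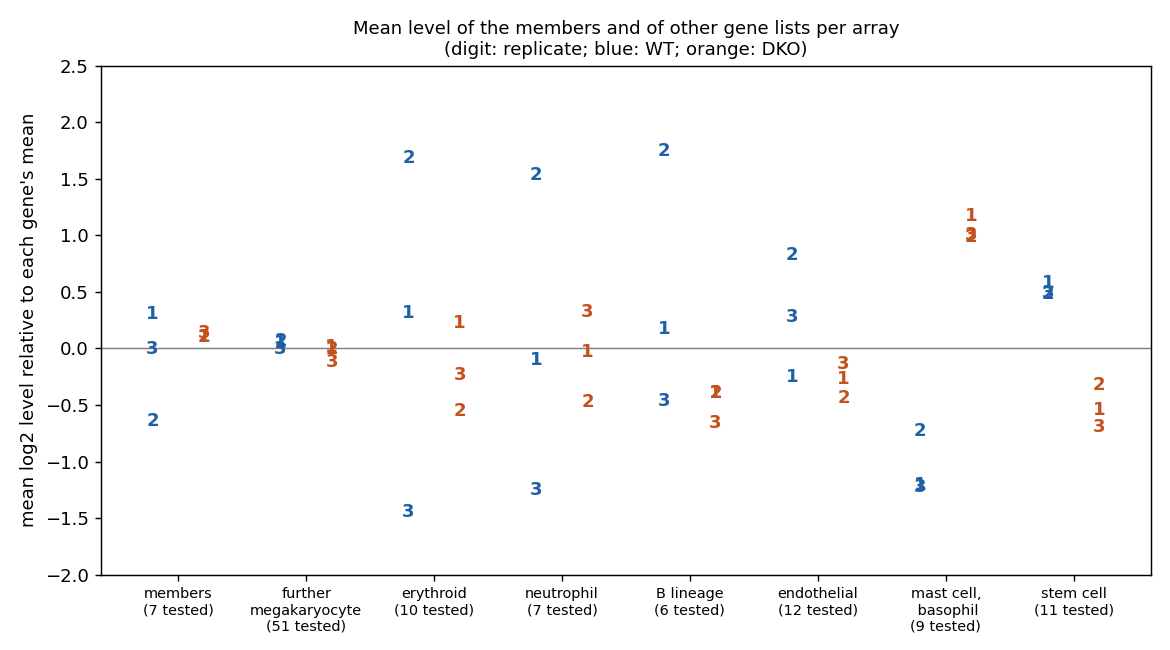
Mean log2 level of each list per array, after centring each gene over the 6 arrays, with the number of tested genes under each list, digits for replicates, blue for WT and orange for DKO. The members lie at 0.10 to 0.13 in DKO and at -0.64 in WT replicate 2, where the erythroid, neutrophil and B lineage lists are at 1.69, 1.54 and 1.74.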

How the data were processed

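The deposited table holds 1 MAS5 signal, a linear intensity, per probe set and array. The authors used MAS5 per the submitters' processing notes, with the version not given, and detection calls were not used here. All arrays had a trimmed mean of 500 (2% trimmed per end), and this deposited scaling was left as it is. The table has 45101 probe sets. Leaving out 64 controls left 45037, of which 34945 have 1 gene symbol, 932 have several and 9160 are unnamed in the platform annotation. Of those with 1 symbol, 34741 matched the RefSeq table of GRCm38.p6 by gene identifier. Columns of other samples numbered 0.

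Probe sets in the lowest 40% by mean log2(signal + 16) were dropped, and 27022 were fitted with limma 3.58.1 in R 4.3.3 (lmFit, eBayes with an intensity trend), two-sided and with no block. A gene stands for its brightest tested probe set, which gave 11529 genes. The fit was tested on simulated arrays. The members, lists and rules were chosen with earlier results of these data known. Named are all members, in each list of further megakaryocyte genes those past the threshold by smallest p (up to 4) or else the 2 with the smallest p, the 2 brightest, and the 2 most like each member. Other genes, such as Cd226, Gp6 and the marker genes named singly, were chosen after their values were seen. Of 12 further megakaryocyte genes named by this rule, 16 other tested probe sets had the same sign as the one used and 0 the opposite. The labels describe replicates as independent pools, and no batch or scan date is given in the sources used here. Figures were drawn with matplotlib 3.10.9.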

Additional observations from a re-analysis of the deposited data

How the results depend on the processing

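The count of changed member probe sets was 0 under all 15 alternatives. Selp, Nfe2, Pf4, Itga2b, Vwf, Gp1bb and Treml1 kept their sign in every alternative in which they could be fitted. With an array left out, Ppbp lay between -0.16 and 0.88, Gp9 between -0.76 and 0.32, Gp5 between -1.50 and 0.17, Sparc between -0.36 and 0.57 and Srgn between -0.016 and 0.17. The count of changed probe sets, 370, was 208 unfiltered, 88 without an intensity trend, 563 with array quality weights and 104 to 469 with an array left out. The 3 changed further megakaryocyte genes became 1 with an offset of 1, 1 with no filter, 0 without a trend and 0 to 3 with an array left out. F5 stayed past the threshold in 8 of 9 other alternatives, Itgb3 in 5 and Meis1 in 3. With the replicate number as a block, 312 probe sets and 1 further megakaryocyte gene changed. The numbers share no stated origin, and deviations of same-numbered pools correlated at 0.142, -0.031 and 0.053. Not every pool correlated best with its own number. Median centring moved the median difference from -0.05 to 0.06, a shift of 0.11, and the share of higher calls from 58.9% to 69.4%. Detection calls, which would show which dim members exceed background, were not analysed here, and 3 arrays per group limit the precision.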

Other observations

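A probe set annotated to both Septin5 and Gp1bb, adjoining genes that can share a transcript, was left out of the members. Its signals were 37.8, 78.2 and 0.6 in WT and 47.1, 137 and 66.5 in DKO, with overlap. Among surface receptors of platelets too dim to be tested, Cd226, also found on cytotoxic lymphocytes, had means of 23.4 in WT and 101 in DKO, and every DKO array was above every WT array (log2 1.70 ± 0.55, limma adjusted p = 0.257 without the filter). Gp6, the platelet collagen receptor, had means of 8.60 and 8.93. Both were picked for mention after their values were seen.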
